A study of Mus musculus with 6 samples.

Results

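The interferon-stimulated genes of mouse liver are described here as a set of 41 genes, taken by gene name from the 54532 rows of the count table; every name was found once. The set was put together from general knowledge of these genes, with earlier results of the same libraries known. Bulk RNA sequencing covered 6 livers of male mice. KO denotes 3 libraries (replicates 4, 5 and 6) from Trem2-deficient animals (Trem2-/-), and WT denotes 3 libraries (replicates 1, 2 and 3) from wild-type littermates. All animals in both groups began a high-fat diet at 8 weeks of age and stayed on it for 8 weeks, so no other diet was compared. The allele, whether it was lost in all cells, and whether each library came from its own mouse are not given in the sources used here; p-values therefore describe the spread among these libraries, which may be in part technical.

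Interferons are cytokines released on viral infection, tissue damage or T-cell and NK-cell activation. Type I and type III interferons signal through JAK kinases to a complex that holds STAT2 and IRF9 and binds the interferon-stimulated response element (ISRE) in the promoters of its targets. Type II interferon, interferon gamma, acts mainly through the gamma-activated site (GAS). The targets include sensors of viral nucleic acid, factors that amplify the response, proteins that restrict viruses, and GTPases that attack the vacuoles of intracellular parasites. In liver both hepatocytes and resident macrophages respond to interferon, and TREM2 is a lipid-sensing receptor of macrophages.

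Library totals lay between 11591021 and 20399361 counts. Levels are given as CPM, the share of a TMM-scaled library total, with mean ± SD over the 3 libraries of a group, and changes as log2 fold changes of KO over WT with their standard error (SE) from edgeR's quasi-likelihood fit. Trem2 itself did not separate the labels, with 9, 6 and 5 counts in KO replicates 4, 5 and 6 against 7, 26 and 26 counts in WT replicates 1, 2 and 3, so each direction holds between libraries as labelled. The mitochondrial genome gave 28%, 9.08% and 19.8% of counts in KO replicates 4, 5 and 6, against 8.16%, 12.7% and 10.2% in WT replicates 1, 2 and 3. Hepatocyte genes were abundant in every library. The summed level of Alb, Ttr, Apoa1, Serpina1a and Cyp2e1 was 75360, 78561 and 79382 CPM in KO libraries and 106924, 75018 and 99178 CPM in WT libraries. Of these 5 genes 4 were fitted lower in KO and 1, Ttr, higher, with 0 at an adjusted p under 0.05 by edgeR. In 2 of them, Apoa1 and Serpina1a, all KO values lay below all WT values, beside 5.73% of all tested genes.

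All 41 genes were expressed well enough to be tested. The lowest count of any of them in any library was 9, and all 41 stood above the approximate minimum of the count filter, 0.584 CPM, in all 3 KO libraries and in all 3 WT libraries, so none entered the test through one group alone. Per unit of gene length they spanned a wide range. On the authors' FPKM scale Ifitm3, a membrane protein that blocks the fusion of enveloped viruses, was highest, with a mean of 670 FPKM in KO and 820 FPKM in WT libraries. Bst2, the tetherin that holds budding virions on the cell surface, followed at 172 FPKM in KO and 227 FPKM in WT libraries, and Ifitm2, a paralogue of Ifitm3, stood at 116 and 171 FPKM in KO and WT libraries. Iigp1, an immunity-related GTPase, averaged 83.9 FPKM in KO and 106 FPKM in WT libraries, and Ifi27 averaged 60.4 and 70.0 FPKM in KO and WT libraries. The sixth was Ifi35, at 30.3 FPKM in KO and 24.9 FPKM in WT libraries. Over all 6 libraries 13 genes averaged more than 10 FPKM and 17 fewer than 3 FPKM. Ifi44 was lowest, at 0.532 FPKM in KO and 0.429 FPKM in WT libraries. The virus-induced genes Mx1, Oasl2, Ifit2, Oas1a and Rsad2 were among the 7 genes with the lowest means, together with Gbp2 and Ifi44. Others of that class were higher, with Isg15, Ifit3 and Ifit1 averaging 23.1, 11.1 and 8.12 FPKM over all 6 libraries.

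**Figure D1:**
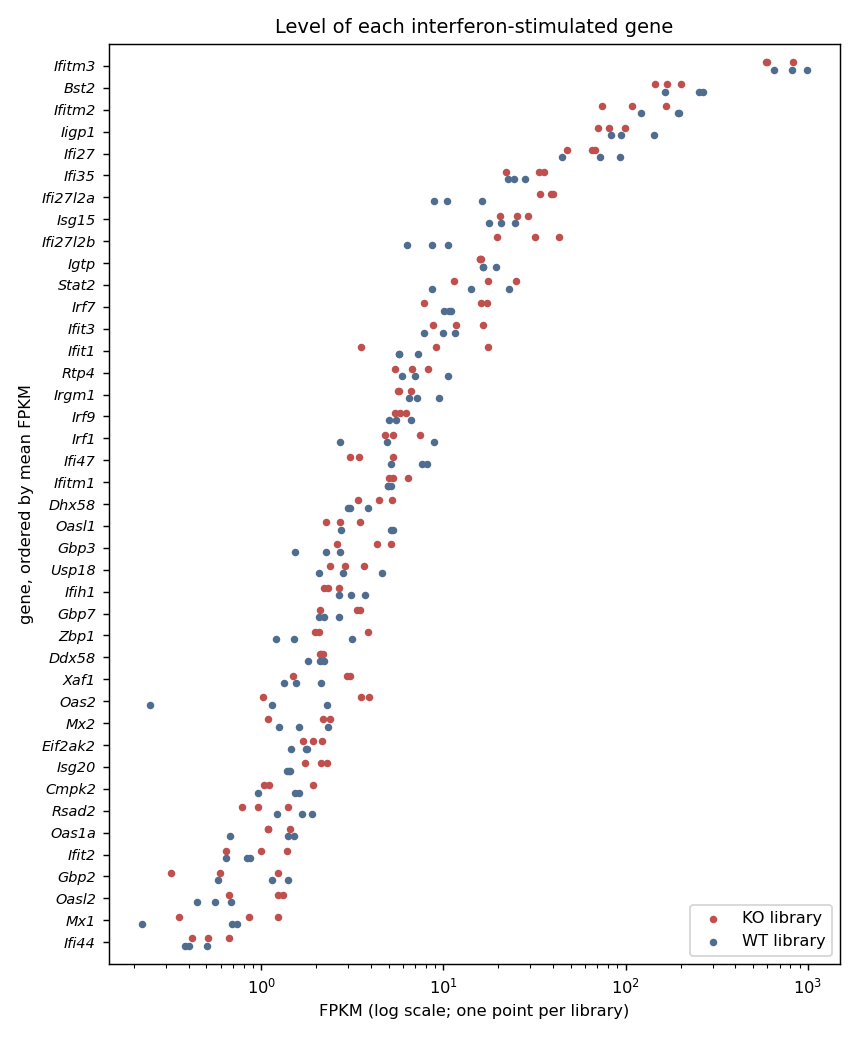
FPKM of each of the 41 genes in every library, on a log axis, ordered by the mean over 6 libraries; red points are KO libraries and blue points WT libraries. Levels run from Ifi44, with group means of 0.532 FPKM in KO and 0.429 FPKM in WT, to Ifitm3, at 670 FPKM in KO and 820 FPKM in WT, and the red and blue points separate for Ifi27l2a and Ifi27l2b.

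Fitted group changes were below 2-fold for most of the set, and the largest belonged to 2 paralogues, Ifi27l2a and Ifi27l2b. Single KO libraries often lay outside the WT range, as given below. No member passed an adjusted p of 0.05 over all genes in edgeR's quasi-likelihood test, where 0.0146% of the 13693 tested genes were called higher and 0% lower. At an unadjusted p under 0.05 there were 4 members higher, namely Ifi27l2a, Ifi27l2b, Gbp3 and Oasl2, which is 9.76% of the set beside 5.37% of all tested genes. The 1 member lower at that level was Ifi47, or 2.44% beside 3.21% of all tested genes. Of the 41 genes 27 were fitted higher in KO (65.9%, beside 49.1% of all tested genes) and 14 lower. Their median log2 fold change was 0.18, beside -0.01 over all tested genes, and the middle 50% of the set ran from -0.18 to 0.43, beside -0.29 to 0.32 over all tested genes. A fitted difference of more than 2-fold was seen in 3 members, all higher (7.32% of the set, beside 5.89% of all tested genes), and in 0 members lower (beside 2.69%).

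**Figure D2:**
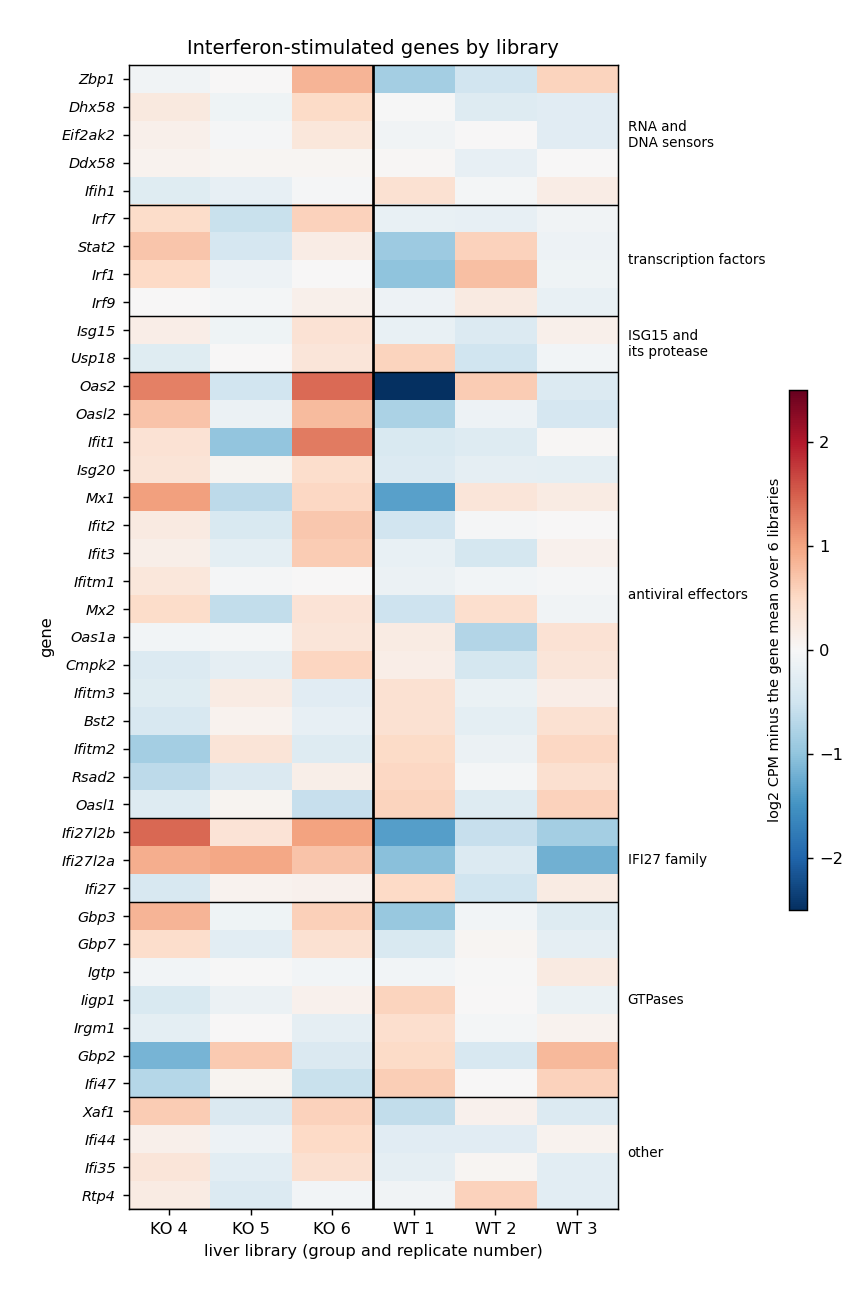
Log2 CPM of each gene (rows, grouped by role) in each library (columns, KO left of WT), minus the gene's mean over the 6 libraries; red is above and blue below that mean. Ifi27l2a and Ifi27l2b are red in all 3 KO columns and blue in all 3 WT columns, while for Irf7, Ifit1, Oas2 and Gbp3 KO replicate 5 is blue and KO replicates 4 and 6 are red.

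Complete separation of the groups was rare. In 5 members every KO value lay above every WT value, which is 12.2% of the set beside 8.12% of all tested genes; these were Ifi27l2a, Ifi27l2b, Isg20, Ifitm1 and Ddx58. In 0 members did every KO value lie below every WT value, beside 5.73% of all tested genes. The separation was narrow for Ifitm1 and Ddx58, and that of Isg20 rested on low counts, as their values below show. Scatter within groups was of similar size in both: the median coefficient of variation over the 41 genes was 23.4% in KO and 23.0% in WT libraries. Across the 6 libraries the highest value of a member was, at the median, 2.12 times the lowest.

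**Figure D3:**
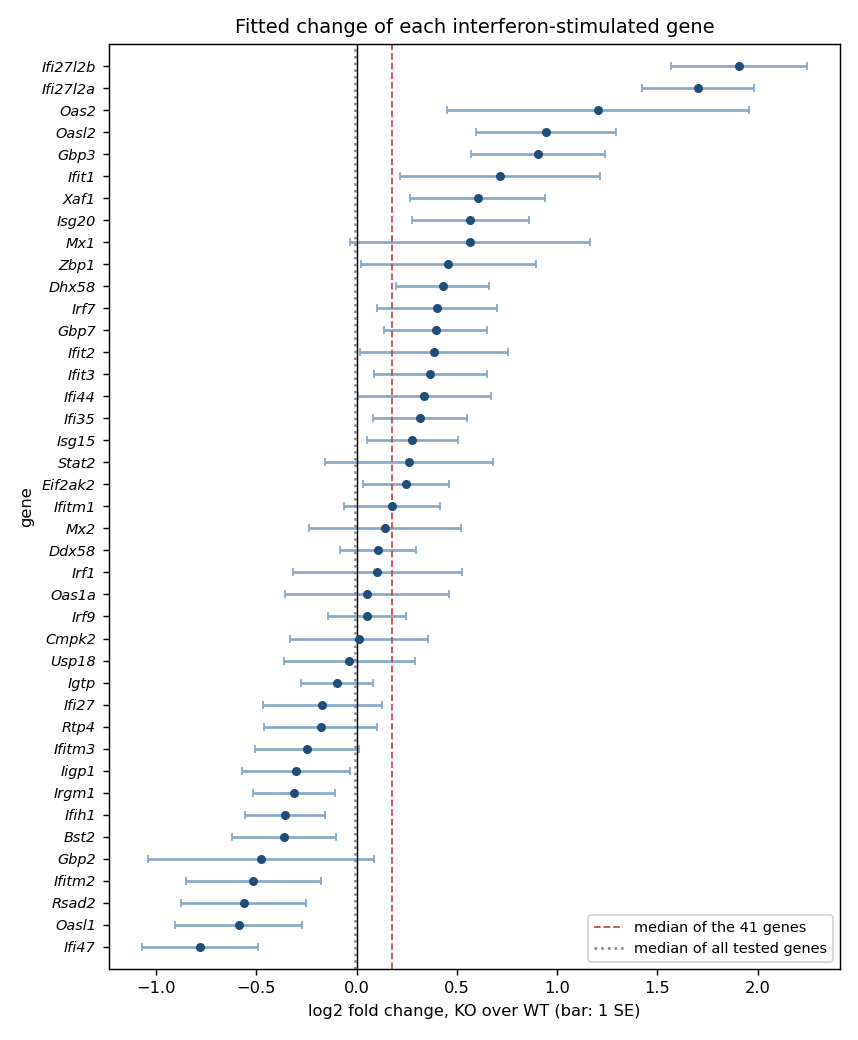
Fitted log2 fold change of KO over WT for each of the 41 genes, with bars of 1 SE; the dashed line is the median of the set (0.18) and the dotted line that of all tested genes (-0.01). Ifi27l2b (1.91) and Ifi27l2a (1.70) stand above the other members, and Ifi47 (-0.78) is lowest.

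The IFI27 family is made of small, hydrophobic interferon-induced proteins, and in mouse 3 of its genes are neighbours on chromosome 12 (mm10). Ifi27 (103434211 to 103440239, plus strand) is followed after 1928 bases by Ifi27l2a (103442167 to 103443680, minus strand), and after a further 7218 bases by Ifi27l2b (103450898 to 103457223, minus strand). Ifi27l2a had 18.3, 19.1 and 16 CPM in KO replicates 4, 5 and 6, against 4.67, 7.62 and 4.13 CPM in WT replicates 1, 2 and 3. Every KO value was more than 2 times the highest WT value, and the KO libraries were close to one another, with a coefficient of variation of 9.18%. The group means were 17.8 ± 1.63 CPM in KO and 5.48 ± 1.88 CPM in WT (SD, n = 3 each), 3.25 times as high in KO (log2 1.70, SE 0.28, adjusted p = 0.285 by edgeR). Ifi27l2b had 47.6, 22.1 and 35.3 CPM in KO libraries, against 6.67, 11.7 and 9.58 CPM in WT libraries. The groups did not overlap here either, although KO replicate 5 was well below KO replicate 4. Means of 35.0 ± 12.7 CPM in KO and 9.32 ± 2.53 CPM in WT (SD, n = 3 each) stood 3.75-fold apart (log2 1.91, SE 0.34, adjusted p = 0.298 by edgeR).

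Whether these 2 genes pass a threshold over all genes depended on the tool. DESeq2 gave both an adjusted p of 0.000334; it called 0.733% of its 14590 genes with an adjusted p higher and 0.432% lower, and these 2 were its only calls among the 41. With edgeR and no filter on low counts the adjusted p was 0.0163 for Ifi27l2a and 0.00798 for Ifi27l2b. With 1 library left out at a time the log2 change ranged from 1.51 to 2.01 for Ifi27l2a and from 1.62 to 2.15 for Ifi27l2b. Ifi27 itself, the nearest neighbour of Ifi27l2a, had 71.1, 99.2 and 101 CPM in KO libraries against 132, 65.8 and 108 CPM in WT libraries. These values overlapped throughout (log2 -0.17, SE 0.29), so the 3 neighbouring genes were not fitted in 1 direction.

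**Figure D4:**
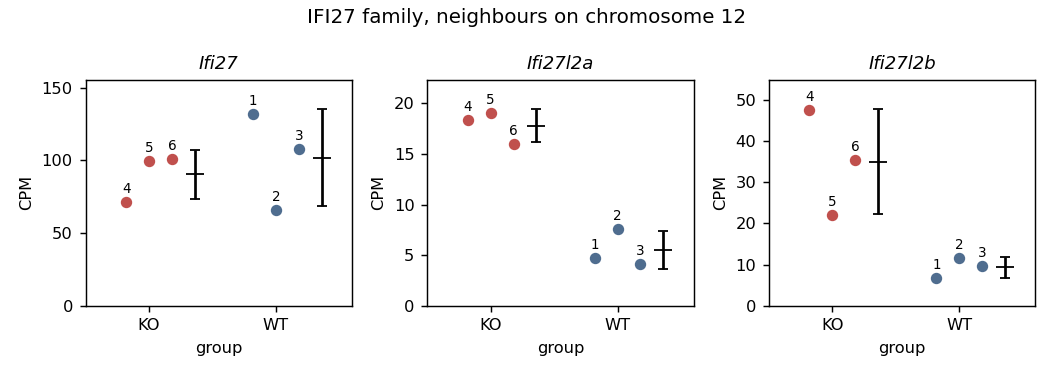
CPM of the 3 neighbouring IFI27 family genes in each library (numbered points, KO left of WT), with the group mean and SD beside them. KO and WT libraries overlap for Ifi27 and are separate for Ifi27l2a (KO 16 to 19.1 CPM, WT 4.13 to 7.62 CPM) and Ifi27l2b (KO 22.1 to 47.6 CPM, WT 6.67 to 11.7 CPM).

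Because the 2 genes are paralogues, their coding sequences are shown to see how far reads can tell them apart. Slid along each other without gaps, the 270 coding bases of Ifi27l2a matched those of Ifi27l2b at 84.8% of positions, and those of Ifi27 at 64.1%. The first 90 coding bases of Ifi27l2a and the matching bases 376 to 465 of Ifi27l2b, from GENCODE transcripts of the GRCm38 build (mm10), are given with the 15 bases that differ in capitals.
Ifi27l2a: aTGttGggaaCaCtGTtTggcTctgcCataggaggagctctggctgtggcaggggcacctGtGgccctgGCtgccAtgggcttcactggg
Ifi27l2b: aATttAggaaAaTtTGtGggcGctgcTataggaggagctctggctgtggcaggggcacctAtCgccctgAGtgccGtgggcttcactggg
The longest stretch in common in this window is the run of lower-case letters in the middle. Of all 414 different stretches of 50 bases in the Ifi27l2a transcript, 2 also occur in a transcript of another gene, which is Ifi27l2b (0.483%). Ifi27l2b shares the same 2 stretches, 0.211% of its own.

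Sensors of foreign nucleic acid differed little between the groups. Dhx58, the helicase LGP2 that tunes the sensors RIG-I and MDA5, had 14.7, 11.4 and 17.3 CPM in KO libraries against 12.2, 9.86 and 10.1 CPM in WT libraries (log2 0.43, SE 0.23, edgeR adjusted p = 0.641). KO replicate 5 lay inside the WT range, and the other 2 KO libraries lay above it. Ddx58, which encodes RIG-I itself, had 15.7, 15.3 and 15.2 CPM in KO libraries against 15.1, 12.8 and 15 CPM in WT libraries. All KO values were above all WT values, but the lowest KO and highest WT library were almost level, and the fitted change was 0.11 (SE 0.19). Ifih1, encoding MDA5, ran the other way, with 18.3, 19.6 and 22.1 CPM in KO libraries against 29.5, 21.9 and 25.5 CPM in WT libraries (log2 -0.36, SE 0.20, edgeR adjusted p = 0.647). Only KO replicate 6 reached the lowest WT value. Zbp1, a sensor of left-handed nucleic acid that triggers necroptosis, and Eif2ak2, the kinase PKR that halts translation, had log2 changes of 0.46 (SE 0.44) and 0.25 (SE 0.21).

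The 4 transcription factors of the response were all fitted higher by small amounts, and Irf1 and Stat2 varied widely within the groups. Irf7, which amplifies type I interferon production, had 61.2, 30.4 and 66.6 CPM in KO libraries against 39.1, 38.6 and 42.0 CPM in WT libraries. The WT libraries were close together, while KO replicates 4 and 6 lay above them and KO replicate 5 below (log2 0.40, SE 0.30, edgeR adjusted p = 0.686). Stat2, a subunit of the ISRE-binding complex, had 151, 69.6 and 105 CPM in KO libraries against 49.4, 138 and 84.4 CPM in WT libraries. Irf1, a factor induced by interferon gamma, had 30.0, 19.5 and 21.4 CPM in KO libraries against 10.5, 35.8 and 19.6 CPM in WT libraries. For both genes the WT libraries alone spanned a wide range, with replicate 1 lowest and replicate 2 highest, and the KO libraries fell inside that range except KO replicate 4 for Stat2. Their log2 changes, 0.26 (SE 0.42) for Stat2 and 0.10 (SE 0.42) for Irf1, became -0.036 and -0.23 without WT replicate 1, and -0.050 and -0.10 without KO replicate 4. Irf9, the DNA-binding subunit of the complex, was even across libraries, at 31.4, 30.2 and 33.8 CPM in KO and 28.5, 36.3 and 27.3 CPM in WT (log2 0.05, SE 0.19).

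Isg15 and Usp18 encode a ubiquitin-like modifier and the protease that removes it, which is also a brake on the type I receptor. Isg15 had 19.5, 16 and 22.3 CPM in KO libraries against 15.1, 13.6 and 18.9 CPM in WT libraries (log2 0.28, SE 0.23). Usp18 averaged 8.46 ± 1.80 CPM in KO and 8.68 ± 3.33 CPM in WT libraries (SD, n = 3 each; log2 -0.04, SE 0.33). Neither gene parted the groups.

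Ifit proteins bind viral RNA that lacks the marks of host RNA, and their genes lie together on chromosome 19. Ifit1 had 24.5, 9.63 and 47.0 CPM in KO libraries against 14.7, 15.2 and 19.4 CPM in WT libraries. KO replicate 6 was far above KO replicate 5, while the WT libraries stayed near one another (log2 0.72, SE 0.50, edgeR adjusted p = 0.677). The log2 change was 0.042 without KO replicate 6 and 1.12 without KO replicate 5. Ifit3 had 20.8, 15.8 and 29.3 CPM in KO libraries against 16.7, 13.8 and 20.5 CPM in WT libraries (log2 0.37, SE 0.28). Ifit2 had 4.0, 2.59 and 5.52 CPM in KO libraries against 2.43, 3.33 and 3.45 CPM in WT libraries (log2 0.39, SE 0.37). All 3 genes followed 1 order within KO, with replicate 6 highest and replicate 5 lowest. Of the stretches of 50 bases in the Ifit3 transcript 51.2% also occur in its near copy Ifit3b, so its count depends on how shared reads were treated.

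Oligoadenylate synthetases make the second messenger that activates RNase L, and their relatives diverged in direction. Oas2 had 15.9, 4.68 and 17.6 CPM in KO libraries against 1.06, 10.3 and 5.15 CPM in WT libraries. It varied most of all members, its highest library being 16.6 times its lowest, and the groups overlapped (log2 1.20, SE 0.75, edgeR adjusted p = 0.665). Its log2 change was 0.71 without WT replicate 1 and 2.0 without WT replicate 2. Oasl2 had 7.99, 4.35 and 8.47 CPM in KO libraries against 2.74, 4.42 and 3.60 CPM in WT libraries (log2 0.95, SE 0.35, edgeR adjusted p = 0.523). KO replicate 5 alone lay inside the WT range. Oasl1, which in mouse represses translation of Irf7 and lies 11006 bases from Oasl2 on chromosome 5, had 7.18, 9.40 and 5.98 CPM in KO libraries against 13.3, 7.17 and 13.5 CPM in WT libraries. It was fitted lower (log2 -0.59, SE 0.32, edgeR adjusted p = 0.641), with WT replicate 2 among the KO values. Oas1a, with 57.6% of its stretches of 50 bases shared with Oas1g or other genes, averaged 2.33 ± 0.375 CPM in KO and 2.23 ± 0.841 CPM in WT libraries (SD, n = 3 each).

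Other restriction factors gave small and mixed differences. Isg20, an exonuclease that degrades RNA, had 4.0, 3.33 and 4.33 CPM in KO libraries against 2.49, 2.69 and 2.67 CPM in WT libraries. The groups were separate, but the gene rests on 44 to 72 counts in KO and 40 to 55 counts in WT libraries (log2 0.57, SE 0.29, edgeR adjusted p = 0.631). Mx1 and Mx2, dynamin-like GTPases that block viral replication, had log2 changes of 0.56 (SE 0.60) and 0.14 (SE 0.38). Rsad2, encoding viperin, had 3.45, 4.31 and 6.17 CPM in KO libraries against 7.98, 5.31 and 7.34 CPM in WT libraries (log2 -0.56, SE 0.31, edgeR adjusted p = 0.642), with KO replicate 6 inside the WT range. Its neighbour Cmpk2, a nucleotide kinase whose gene lies 12752 bases away, was level, at 5.72 ± 2.05 CPM in KO and 5.67 ± 1.45 CPM in WT libraries (SD, n = 3 each).

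The most abundant members, which act at membranes, were fitted slightly lower in KO livers. Ifitm3 had 406, 577 and 409 CPM in KO libraries against 649, 446 and 559 CPM in WT libraries (log2 -0.25, SE 0.26, edgeR adjusted p = 0.755). Ifitm2 had 49.4, 112 and 71.8 CPM in KO libraries against 124, 80.6 and 129 CPM in WT libraries (log2 -0.51, SE 0.34, edgeR adjusted p = 0.667). For both genes KO replicates 4 and 6 lay below every WT library and KO replicate 5 lay among them. Bst2 had 133, 188 and 154 CPM in KO libraries against 231, 150 and 231 CPM in WT libraries (log2 -0.36, SE 0.26), with WT replicate 2 among the KO values. Ifitm1, the least expressed of the trio, had 7.08, 5.70 and 5.84 CPM in KO libraries against 5.23, 5.51 and 5.69 CPM in WT libraries. Its groups were separate only just, at 5.70 CPM in the lowest KO and 5.69 CPM in the highest WT library (log2 0.18, SE 0.24). Ifitm2 shares 48.5% of its stretches of 50 bases with other annotated genes.

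GTPases induced mainly by interferon gamma split into higher and lower members. Among the guanylate-binding proteins, which coat and break pathogen vacuoles, Gbp3 had 17, 8.75 and 14.3 CPM in KO libraries against 4.86, 8.96 and 7.49 CPM in WT libraries. KO replicates 4 and 6 stood above every WT library and KO replicate 5 just below WT replicate 2 (log2 0.90, SE 0.33, edgeR adjusted p = 0.521). Its neighbour Gbp7 had 19.9, 12.2 and 19.0 CPM in KO libraries against 11.2, 15.1 and 12.5 CPM in WT libraries, with the same KO replicates on top (log2 0.39, SE 0.26). Gbp2, the third of that cluster on chromosome 3, was scarce, at 0.817, 3.20 and 1.51 CPM in KO libraries and 2.80, 1.47 and 3.55 CPM in WT libraries (log2 -0.48, SE 0.56; -1.15 without KO replicate 5).

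Immunity-related GTPases were all fitted lower. Ifi47 had 7.72, 13.4 and 8.67 CPM in KO libraries against 19.5, 12.9 and 19.1 CPM in WT libraries (log2 -0.78, SE 0.29, edgeR adjusted p = 0.522). KO replicate 5 and WT replicate 2 were close, and the others were apart. Irgm1, a regulator of the other GTPases and of autophagy, had 33.1, 39.9 and 33.7 CPM in KO libraries against 52.8, 38.0 and 41.9 CPM in WT libraries (log2 -0.31, SE 0.20). Iigp1, an effector that disrupts parasite vacuoles, had 224, 261 and 315 CPM in KO libraries against 431, 295 and 260 CPM in WT libraries (log2 -0.30, SE 0.27). Igtp was level, with 32.5, 33.7 and 32.4 CPM in KO libraries against 32.2, 33.7 and 39.4 CPM in WT libraries (log2 -0.10, SE 0.18). Over the 7 GTPases the median was -0.30, with 2 members fitted higher and 5 lower, and 0 past the adjusted threshold.

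Of the remaining 4 genes, 3 were fitted higher. Xaf1, a pro-apoptotic partner of the caspase inhibitor XIAP, had 14.6, 7.22 and 14.0 CPM in KO libraries against 6.04, 10.1 and 7.34 CPM in WT libraries (log2 0.60, SE 0.34, edgeR adjusted p = 0.642). Ifi35 had 58.3, 39.1 and 62.5 CPM in KO libraries against 40.6, 48.7 and 39.2 CPM in WT libraries (log2 0.31, SE 0.23). In both genes KO replicates 4 and 6 were above every WT library and KO replicate 5 was not. Ifi44 and Rtp4 had log2 changes of 0.34 (SE 0.33) and -0.18 (SE 0.28).

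The KO libraries did not act as 1 block. KO replicates 4 and 6 both exceeded every WT library in 20 of the 41 genes (48.8%, beside 20.9% of all tested genes), and in 15 of these KO replicate 5 did not (36.6% of the set, beside 12.8% of all tested genes). In 4 genes, Ifitm2, Ifitm3, Irgm1 and Ifi47, KO replicates 4 and 6 lay below every WT library while KO replicate 5 lay inside the WT range (9.76%, beside 11.4% of all tested genes). Single libraries exceeded the WT range in 22, 5 and 22 genes for KO replicates 4, 5 and 6, which is 53.7%, 12.2% and 53.7% of the set beside 31.3%, 21% and 29.1% of all tested genes. They lay below it in 9, 7 and 5 genes, which is 22%, 17.1% and 12.2% of the set beside 32.3%, 18.1% and 26.6% of all tested genes. KO replicate 5 lay inside the WT range in 29 genes (70.7%, beside 60.9% of all tested genes). Among the 27 genes fitted higher, KO replicate 5 was the lowest KO library in 22 (81.5%, beside 58.8% of all tested genes fitted higher), and WT replicate 1 was the lowest WT library in 16. Among the 14 fitted lower, KO replicate 4 was the lowest KO library in 11 and WT replicate 2 the lowest WT library in 11. For these counts of WT replicate 1, KO replicate 4 and WT replicate 2 the share over all tested genes was not computed. On log2 CPM centred on each gene's mean, the median of the set was 0.14, -0.11 and 0.31 in KO replicates 4, 5 and 6, against -0.15, -0.13 and 0.01 in WT replicates 1, 2 and 3. The same median over all tested genes stayed between -0.03 and 0.04 in every library.

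**Figure D5:**
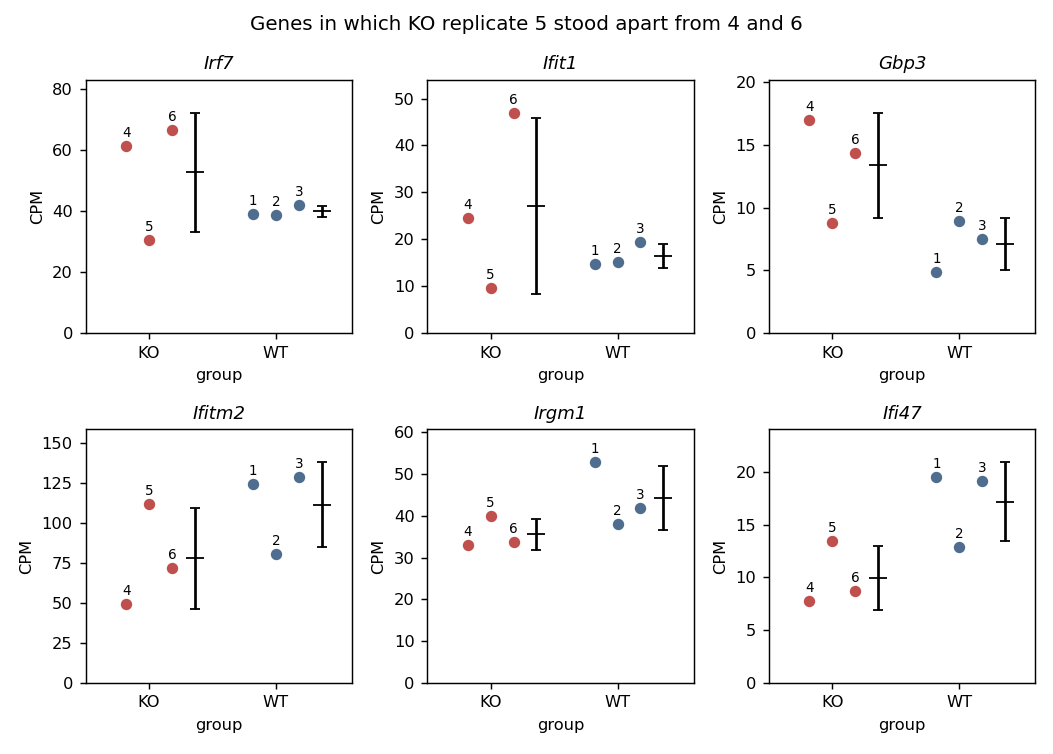
CPM of Irf7, Ifit1, Gbp3, Ifitm2, Irgm1 and Ifi47 in each library (numbered points, KO left of WT), with the group mean and SD beside them. KO replicates 4 and 6 lie above every WT library for Irf7, Ifit1 and Gbp3 and below every WT library for Ifitm2, Irgm1 and Ifi47, while KO replicate 5 does not go with them in any of the 6.

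The same KO libraries differed in RNA composition, with mitochondrially encoded genes at 28% and 19.8% of counts in KO replicates 4 and 6 and at 9.08% in KO replicate 5, against at most 12.7% in WT. Over all counts KO replicates 4 and 6 were also the closest pair of libraries (chi-square per degree of freedom 46.9). KO replicate 5 stood nearer WT replicate 3 (59.4) than KO replicates 4 and 6 (232 and 158). The part of these library-wide differences in the pattern was not tested. WT libraries also ranked unevenly in the set, replicate 1 being the lowest of all 6 libraries in 15 of the 41 genes. The same share over all tested genes was not computed. Without KO replicate 5 the median of the set was 0.32 and without KO replicate 6 it was 0.09; the median was 0.21 without WT replicate 1 and KO replicate 4 together.

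Genes of Kupffer cells and of sinusoidal endothelium were fitted higher in KO livers. All 9 Kupffer cell genes measured (Clec4f, Vsig4, Cd5l, Timd4, Marco, C1qa, C1qb, C1qc and Adgre1) were fitted higher in KO, beside 49.1% of all tested genes. None of the 9 passed the adjusted threshold, and none was at 0. Their summed level was 235, 206 and 273 CPM in KO libraries against 124, 131 and 170 CPM in WT libraries. The sums did not overlap. In 4 of the 9 genes (Vsig4, Cd5l, C1qa and C1qb) all KO values lay above all WT values, beside 8.12% of all tested genes. In the others the groups overlapped. Clec4f, the largest part of the sum, had 112, 59.0 and 131 CPM in KO libraries and 37.1, 59.8 and 60.3 CPM in WT libraries. Monocyte genes summed to 27.0, 49.9 and 30.5 CPM in KO libraries and 25.4, 17.5 and 25.7 CPM in WT libraries, and the 5 of 6 that were tested were all fitted higher. The sum of KO replicate 5 was mostly Lyz2, at 39.0 CPM, and the untested Ly6c2, a marker of classical monocytes, went the other way, with 0, 9 and 2 counts in KO libraries against 9, 10 and 10 counts in WT libraries. The 5 genes of sinusoidal endothelium summed to 132, 115 and 114 CPM in KO libraries and 87.7, 82.4 and 85.0 CPM in WT libraries, although 0 of the 5 had all KO values above all WT values. Genes of T and NK cells (1.30 to 3.68 CPM in KO, 1.2 to 3.11 CPM in WT), B cells (1.71 to 5.18 CPM in KO, 2.37 to 5.95 CPM in WT) and plasmacytoid dendritic cells without Bst2 (2.5 to 4.18 CPM in KO, 0.748 to 2.88 CPM in WT) were scarce in sum. Neutrophil genes summed to 1.67 to 2.30 CPM in KO and 1.86 to 7.73 CPM in WT libraries, with the defining marker Ly6g at 0 counts. In whole liver more cells of a type and more RNA per cell cannot be told apart, and the part of these cells in the values of the set was not tested.

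Promoters of several members are shown because they carry the element through which interferon acts, and because members on both sides of the comparison carry it. RefSeq promoter windows (GRCm38.p6, from 250 bases before to 50 bases after the start) were found for 30 of the 41 genes, though not for the IFI27 family. The stretches below lie before the RefSeq start and are written 5′ to 3′ on the gene's strand. By the gene coordinates that came with the counts, the Irgm1 stretch lies inside the gene. Those of Gbp3 and Ifitm2 run past the gene's start there. Capitals mark each match to the ISRE core (GAAA, any 2 bases, GAAA), read on either strand. Neighbouring matches overlap in Isg15, Gbp3 and Irgm1.
Isg15 (chr4:156200850-156200921, minus): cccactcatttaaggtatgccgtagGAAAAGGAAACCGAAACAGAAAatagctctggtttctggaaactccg
Ifit1 (chr19:34640760-34640838, plus): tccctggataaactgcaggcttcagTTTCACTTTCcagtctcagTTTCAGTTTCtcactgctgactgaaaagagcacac
Ifit3 (chr19:34583348-34583441, plus): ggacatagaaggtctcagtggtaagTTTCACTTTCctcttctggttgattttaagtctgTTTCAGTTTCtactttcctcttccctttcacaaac
Gbp3 (chr3:142559974-142560039, plus): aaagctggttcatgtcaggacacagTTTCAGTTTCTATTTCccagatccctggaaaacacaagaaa
Irgm1 (chr11:48871421-48871475, minus): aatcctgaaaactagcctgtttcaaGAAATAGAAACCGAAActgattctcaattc
Ifitm2 (chr7:140955973-140956032, minus): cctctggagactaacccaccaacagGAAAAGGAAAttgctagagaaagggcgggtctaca
Isg15, Ifit1, Ifit3 and Gbp3 were fitted higher in KO, and Irgm1 and Ifitm2 lower.

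Members with the element were fitted in both directions. The ISRE core was found in 17 of the 30 promoters (56.7%), beside 3.99% of 27025 genes with a promoter window. The 17 members with a match had a median log2 change of 0.05, with 9 fitted higher and 8 lower, and the 13 without had a median of 0.31, with 11 higher and 2 lower. The GAS core TTCNNNGAA, which reads alike on both strands, was in 10 of the 30 promoters (33.3%, beside 9.55% of all genes), and those 10 members had a median of 0.17, against 0.14 in the 20 without it. These matches are letters in a window and say nothing of binding in these livers.

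Upstream of the set, the interferons themselves were at the limit of detection. Of 18 interferon genes (type I, type II and type III), 17 had 0 counts in all 6 libraries, among them Ifnb1 and Ifng, where a count of 0 allows up to 0.272 CPM in KO replicate 4, the shallowest library. Ifnk had 1 count in KO replicate 4 and 1 in WT replicate 1. Of 6 receptor subunits 5 were expressed well enough to be tested, 2 fitted higher and 3 lower, with 0 called. Ifnar1 of the type I receptor had 27.4, 28.6 and 25.1 CPM in KO libraries against 23.6, 31.4 and 26.1 CPM in WT libraries (log2 -0.00022, SE 0.19), and its partner Ifnar2 had 18.5, 35.5 and 27.7 CPM in KO libraries against 44.4, 19.8 and 36.4 CPM in WT libraries (log2 -0.30, SE 0.35). Ifngr1 and Ifngr2 of the interferon gamma receptor had log2 changes of 0.07 (SE 0.25) and -0.19 (SE 0.35), and Il10rb, shared by the type III receptor, of 0.65 (SE 0.39). Ifnlr1, the other type III subunit, had 1, 3 and 0 counts in KO and 2, 3 and 0 counts in WT libraries and was not tested.

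Among kinases, adaptors and factors that carry the signal, edgeR made no call and DESeq2 called 1 gene, Irf5. Of 18 such genes 16 were tested, 7 fitted higher and 9 lower, with a median of -0.02 and 0 past edgeR's adjusted threshold. Irf5, a factor of macrophage inflammatory polarisation, had 4.63, 5.88 and 5.12 CPM in KO libraries against 10.9, 9.16 and 14.7 CPM in WT libraries, all KO values being lower (log2 -1.15, SE 0.26, adjusted p = 0.370 by edgeR and 0.0347 by DESeq2). It was the only one of the 16 with an unadjusted p under 0.05 in edgeR. Among 8 brakes on the response 7 were tested, 5 fitted higher and 2 lower, again with 0 past the adjusted threshold. Socs1 had 8, 14 and 14 counts in KO libraries against 5, 9 and 4 counts in WT libraries (log2 1.09, SE 0.56), and Socs3 had a log2 change of -0.43 (SE 0.27).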

How the data were processed

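RNA of 6 frozen livers was extracted with Trizol and made into libraries with an Illumina TruSeq kit, per the labels' protocols. Whether counting used the strand is not stated there. Genome build mm10, DESeq2 1.16.1, featureCounts 1.5.0-p3 and HISAT2 2.0.5 are listed, per the submitters' processing notes, without roles. The authors deposited whole read counts per gene for 54532 genes, and a table of FPKM values, used for levels between genes and as an alternative. In each library FPKM equalled count over gene length divided by 1 constant.

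Groups came from the sample titles, which share no replicate numbers. The test was edgeR 4.0.16 under R 4.3.3, run on the counts with TMM and filterByExpr at a minimum of 10 counts (13693 genes). It was a quasi-likelihood test with Benjamini-Hochberg adjustment over all these genes at 0.05. On counts simulated with 1 dispersion for all genes, it recovered 9 of 50 genes changed 2-fold and 45 of 50 changed 4-fold. There 12 of 166 calls were false. The adjustment depends on the number of calls, and the data gave only 2, so these recovery rates do not carry over to the data. Ifi27l2a and Ifi27l2b, fitted 3.25 and 3.75 times as high in KO, were not called by edgeR. A missing call therefore leaves room for changes of at least that size. SE was taken as the fitted log2 change divided by the root of the F statistic. The biological coefficient of variation was 34.7%. Any 2 libraries differed with a chi-square per degree of freedom of at least 46.9, so none was the same library sequenced again. The value cannot show whether 2 libraries came from 1 liver, because separate preparations can also differ. Alternatives used DESeq2 1.42.0, limma 3.58.1, other scalings and filters, FPKM with pseudocounts of 1 and 0.1, and each library left out. The fold change of FPKM plus a constant understates low genes.

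Members, lists and the naming rule were chosen with earlier results of these data known. The rule gave values in every library to called members, the 16 further members with the smallest p, the 6 with the highest FPKM, and fixed families; Ddx58, Isg15, Ifnar1, Ifnar2, Irf5, Socs1 and Socs3, and the margins given for single genes, were chosen after their values were seen. GENCODE vM21 placed 40 of 41 members where the count table does. Sharing of stretches of 50 bases was computed over its transcripts. Limits at 0 counts use 3 counts and cover counting error only.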

Additional observations from a re-analysis of the deposited data

How the results depend on the processing

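The count of all genes past an adjusted p of 0.05 was 2 with edgeR and moved with the method: 170 with DESeq2, 61 with edgeR without a filter on low counts, 1 with limma-voom, 1 with library size alone as the scaling, between 0 and 1 with 1 library left out, and 0 without WT replicate 1 and KO replicate 4 together (540 genes at an unadjusted p under 0.05). Members called were 2, Ifi27l2a and Ifi27l2b, with DESeq2 and with edgeR without the filter, and 0 in the other alternatives. Their adjusted p over all 15 alternatives ranged from 0.000334 to 1.00. The median of the set ranged from 0.09 to 0.32 with 1 library left out, and between 25 and 28 members were fitted higher in all alternatives. Of 615 member values under alternatives 579 kept direction and side of the threshold, and 30 of 41 members never changed sign.

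Sign changes were seen in 11 members; fewer samples apply to the values with libraries left out, and otherwise the cause was not tested. Cmpk2 had -0.024 with DESeq2, -0.022 with limma-voom, -0.010 with DESeq2-type size factors, -0.011 without a filter, -0.0014 with TMM without mitochondrially encoded genes, -0.022 with FPKM plus 1 and -0.041 with FPKM plus 0.1. Usp18 had 0.028 with limma-voom and 0.0078 with library size alone. Without WT replicate 1 and KO replicate 4 together, chosen after seeing the data, values were -0.43 for Irf1, -0.34 for Stat2, 0.44 for Usp18, -0.23 for Mx1, -0.26 for Mx2, 0.21 for Ifi27 and 0.055 for Iigp1. With 1 library left out the ranges were -0.32 to 0.17 for Cmpk2, -0.26 to 0.30 for Usp18, -0.23 to 0.64 for Irf1, -0.052 to 0.18 for Irf9, -0.050 to 0.69 for Stat2, -0.061 to 0.42 for Mx2, -0.23 to 0.25 for Oas1a, -0.41 to 0.058 for Ifi27 and -0.36 to 0.11 for Rtp4. Low counts limit Gbp2, Mx1, Oas1a, Ifit2, Isg20 and Ifi44, which rest on fewer than 100 counts in every library. No paired analysis was possible because the groups share no replicate numbers.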
